A study of Homo sapiens with 4 samples.

Results

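A dividing cell enters mitosis when cyclin B and CDK1 become active, and leaves it when their partner cyclins are destroyed. Between those points the kinetochore, a protein assembly built on the centromere, attaches each chromosome to the spindle, and the spindle checkpoint holds back the anaphase-promoting complex until every kinetochore is attached. Most of the transcripts involved peak in G2 and mitosis, so their level in a culture of cancer cells also follows how many of the cells are dividing. The 54 genes described here were listed by name: cyclins, CDK1 and its regulators, mitotic kinases, checkpoint proteins, centromere and kinetochore proteins, and the factors of protein degradation that open anaphase. Of these, 53 had a probe set naming that gene alone, among 18244 genes so represented, and 52 were bright enough to be tested. PTTG1 (securin) had no probe set of its own and CENPP lay under the intensity filter.

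The cells were Kelly, an established human neuroblastoma line, in a derivative resistant to the ALK inhibitor TAE684 and grown in 1 µM of it. The shBORIS cells carried a hairpin against BORIS, the protein of CTCFL, and the shLUC control cells carried a hairpin against luciferase. Per the labels, both were exposed to virus for 24 h, selected in puromycin for 48 h and collected as biological duplicates, so each group had 2 Affymetrix PrimeView arrays and all cells studied were resistant, drug-treated and selected. No second hairpin against BORIS was analysed here, so effects of this hairpin on other genes cannot be told apart from effects of less BORIS, and survivors of selection cannot be told apart from all infected cells.

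The targeted gene was lower on both arrays of the hairpin against it. On its brightest probe set CTCFL had intensities of 701 and 737 with shBORIS, against 3563 and 3376 with shLUC. Of its 6 probe sets over the filter, 5 were lower as deposited. On the relative scale, explained below, their log2 differences ran from -3.53 to -0.36. Neuroblastoma markers were bright on all 4 arrays, with summed intensities of 23218 and 23917 with shBORIS and 17588 and 16831 with shLUC over the 8 of 9 that had a probe set. CHGA made most of that difference, at 6272 and 6239 with shBORIS, against 2292 and 1974 with shLUC; on the relative scale 6 of the 8 were lower and 2 higher, with a median of -0.22, and PHOX2A was also dimmer as deposited, at 1072 and 1177 with shBORIS, against 1281 and 1249 with shLUC. Of 14 markers of Schwann, stromal, endothelial and immune cells, 12 had a probe set and 3 passed the filter. Their sums were 952 and 1028 with shBORIS, against 1184 and 1195 with shLUC, of which COL1A1 was the brightest, at 451 and 515 with shBORIS, against 729 and 779 with shLUC. The pan-leukocyte marker PTPRC, under the filter, read 11.8 and 10.7 with shBORIS, against 15.9 and 12.2 with shLUC. The other markers did not follow these 2 as deposited. Both arrays of SOX10, S100B, COL3A1, LUM, VWF and CD3E were brighter with shBORIS, and those of DCN, PECAM1, CDH5 and CD68 overlapped. On the relative scale the 3 that passed the filter, COL1A1, VWF and CD68, were lower. The part of these markers in the results below was not tested.

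The 2 scales of these data matter for every value. On the deposited scale, probe sets for human transcripts had medians of 80.8 and 84.5 with shBORIS, against 64.4 and 60.4 with shLUC, while the synthetic ERCC spike-ins had medians of 25.5 and 25.8 with shBORIS, against 24.8 and 24.4 with shLUC. These spike-in medians lay under the intensity filter of 62.2, so they cannot show how the brighter spike-ins compared. The median of the 10946 genes tested differed by 0.48 as a log2 difference, 1.39-fold. Differences are therefore given as deposited and on a relative scale on which each array's median tested gene is set to 0. Unless the deposited scale is named, "rose" and "fell" mean an adjusted p under 0.05 in limma on the relative scale, and each adjusted p covers all 10946 genes. In a bulk culture, a larger share of cells in mitosis and more of a transcript per mitotic cell cannot be told apart.

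Mitotic genes were higher in shBORIS cells as a group. As deposited, 49 of the 52 members tested were higher and 1 lower, beside 77.2% higher and 4.64% lower of all genes tested; without shLUC replicate 1, 0 were lower. On the relative scale 39 of 52 rose and 3 fell, beside 30.3% and 28.8% of all genes. The members' median log2 difference was 0.85 as deposited and 0.37 on the relative scale, or 1.80-fold and 1.29-fold. A relative rise of at least 1.5-fold was seen in 13 members, beside 4.7% of all genes, and a relative rise of at least 2-fold in SKA3 alone, beside 0.356%. Before centring, 15 members were higher by at least 2-fold, beside 6.65% of all genes.

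The arrays of each group lay close together. The median intensity over the 53 members was 833 and 907 with shBORIS, against 467 and 428 with shLUC. As deposited, both shBORIS arrays exceeded both shLUC arrays in 50 of 52 members, beside 83.8% of all genes. On the relative scale this held for 42 of 52, beside 40.4%. INCENP and SKA2 were the exceptions as deposited: the arrays of INCENP overlapped and those of SKA2 were apart in the other direction.

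**Figure D1:**
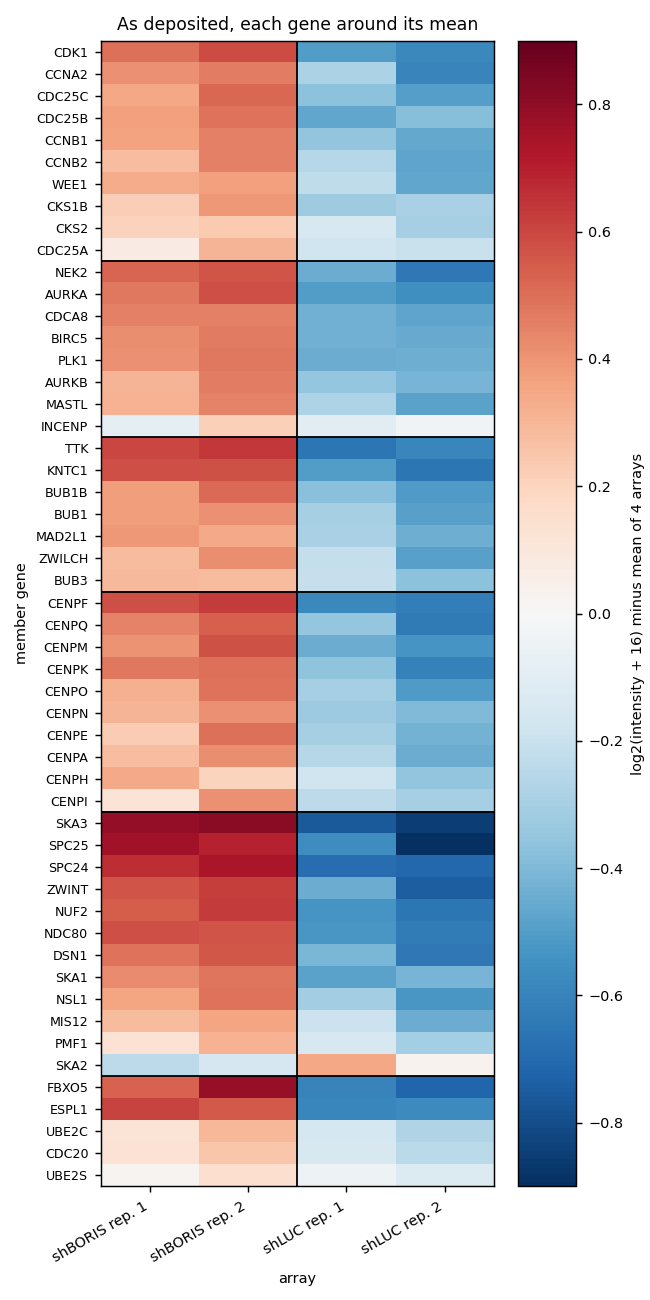
Colour map of the 52 tested members (rows, in 6 functional groups separated by lines) on the 4 arrays (columns), as log2(intensity + 16) as deposited minus the gene's mean over the arrays. Nearly all rows are red on both shBORIS arrays and blue on both shLUC arrays; SKA2 runs the other way and INCENP and UBE2S are pale.

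The groups differed in how far they moved. Their counts on the relative scale stand beside 30.3% higher and 28.8% lower of all genes. The outer kinetochore had the highest median on the relative scale, at 0.62, with 9 of 12 higher and 1 lower. Mitotic kinases and the chromosomal passenger complex followed at 0.41 (7 of 8 higher, 1 lower). The spindle checkpoint stood at 0.31 (6 of 7 higher), the cyclin and CDK1 module at 0.30 (7 of 10) and the centromere proteins at 0.29 (8 of 10), none with a member lower. After quantile normalization the centromere proteins came second, at 0.32, ahead of the kinases at 0.30. Degradation and anaphase factors had a median of -0.05, with 2 of 5 higher and 1 lower, and this median was 0.15 after quantile normalization and 0.040 after cyclic loess. Each of these is the value of UBE2C alone, whose dimmer probe sets read 0.14, 0.22 and 0.33 on the relative scale. As deposited the group medians, in the order of the relative scale, were 1.10, 0.89, 0.79, 0.77, 0.77 and 0.43. The order of these medians is a description of 5 to 12 genes each, and no difference between groups was tested.

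**Figure D2:**
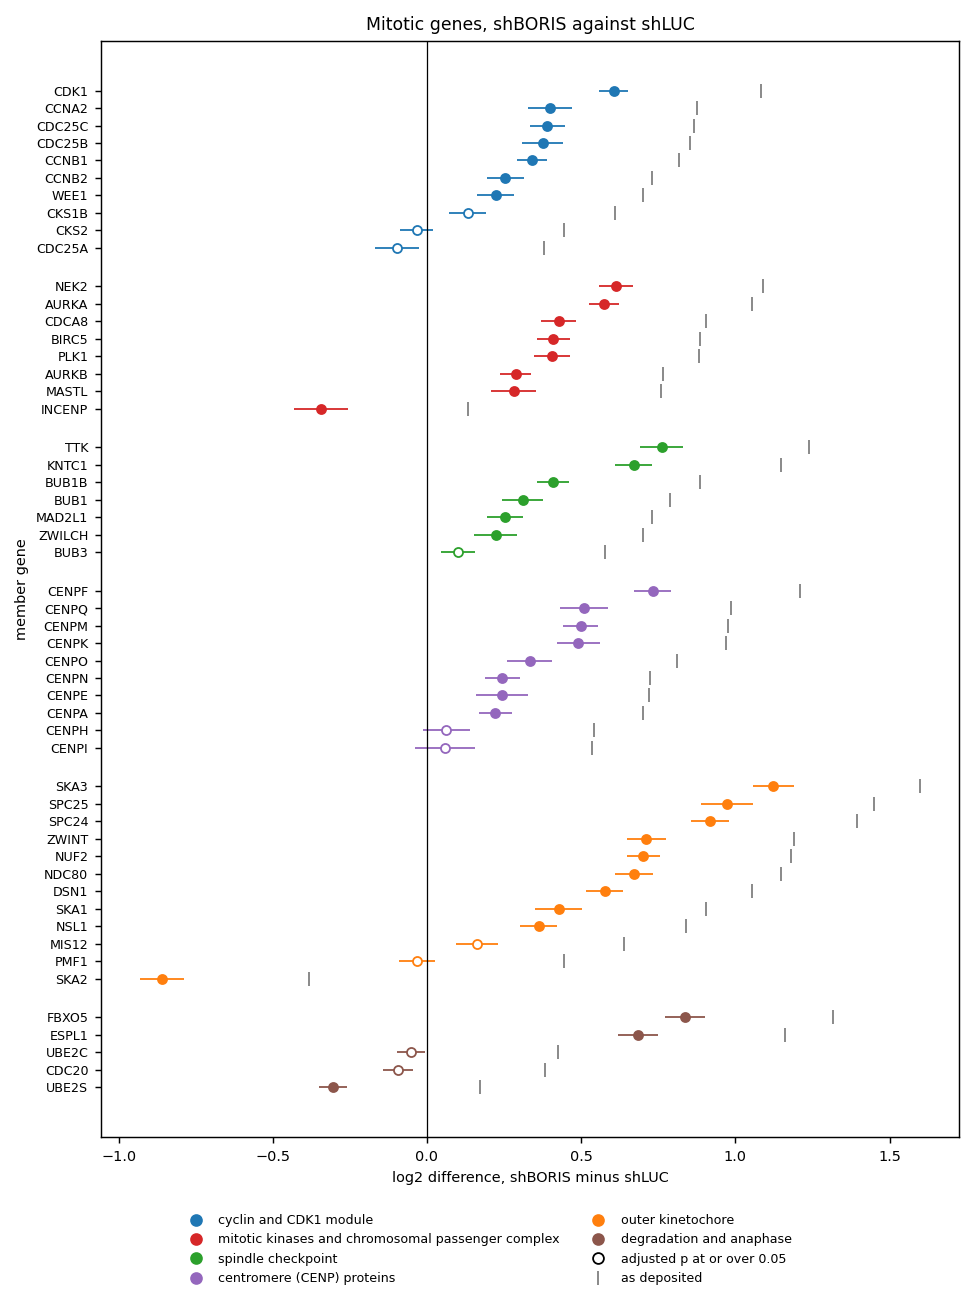
Log2 difference, shBORIS minus shLUC, of each tested member (rows) by functional group. Circles with bars give the value on the relative scale and its SE (filled where the adjusted p was under 0.05), and grey ticks the value as deposited; SKA3 is farthest right at 1.12 and SKA2 farthest left at -0.86.

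Differences on these arrays also varied with level, so the members were set beside genes of like brightness. The median log2 difference as deposited was 0.32 in the dimmest decile of the genes tested, 0.62 in decile 9 and 0.46 in the brightest. Against the median of its own decile, 43 of the 52 members were higher, beside 5470 of all 10946 genes, a share that the use of medians fixes. The members' median distance from it was 0.30. For the outer kinetochore this median was 0.51, and for the degradation group -0.04, again the value of UBE2C.

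**Figure D3:**
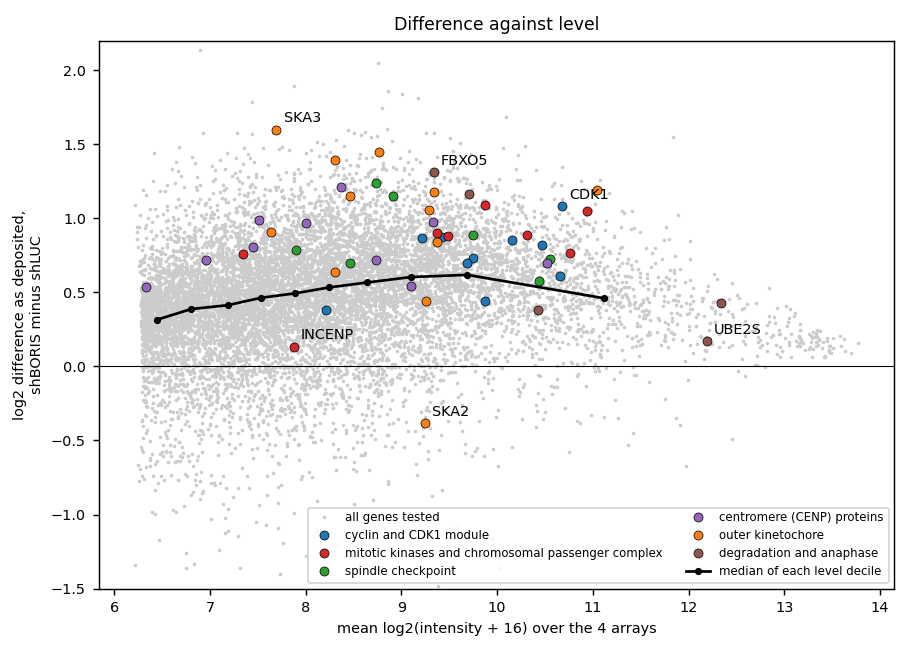
Log2 difference as deposited (shBORIS minus shLUC) against mean log2(intensity + 16) for all genes tested (grey) and the members (coloured by group). The black line joins the medians of 10 level groups. Most members lie above it, and SKA2, INCENP and UBE2S are among those below (15 genes lie outside the vertical range shown).

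CDK1 and most of its partners rose. CDK1, the kinase that starts mitosis, had intensities of 2295 and 2453 with shBORIS, against 1141 and 1084 with shLUC. It rose by 0.61 on the relative scale (SE 0.05; adjusted p = 5.32e-06 in limma), and by 1.08 as deposited. The dimmer shBORIS array was 2.01 times as bright as the brighter shLUC array. CCNB1, the cyclin that activates CDK1 at mitotic entry, read 1805 and 1927 with shBORIS, against 1091 and 1013 with shLUC, a rise of 0.34 on the relative scale (SE 0.05; adjusted p = 0.000193 in limma). CCNA2, the cyclin of S phase and G2, read 901 and 934 with shBORIS, against 550.2 and 441 with shLUC, a rise of 0.40 on the relative scale (SE 0.07; adjusted p = 0.000776 in limma). In both cyclins every shBORIS array lay above every shLUC array on both scales. That held for 83.8% of all genes as deposited and 40.4% on the relative scale. The other cyclin B, CCNB2, rose by 0.25. After quantile normalization and cyclic loess CCNB2 did not pass (adjusted p = 0.0977 and 0.0729).

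The phosphatases that remove the inhibitory phosphates from CDK1 did not move alike. CDC25C, which acts at mitotic entry, read 741 and 833 with shBORIS, against 443 and 405 with shLUC, a rise of 0.39 on the relative scale (SE 0.06; adjusted p = 0.000217 in limma). CDC25B, its partner in G2, rose by 0.38, with all 5 of its probe sets between 0.36 and 0.49. CDC25A, which also acts at the start of S phase, read 297 and 351 with shBORIS, against 246 and 242 with shLUC. That is 0.38 as deposited and -0.10 on the relative scale (SE 0.07; adjusted p = 0.26 in limma), so it passed on the deposited scale alone, and there not without shBORIS replicate 2 (0.26; adjusted p = 0.0812). WEE1, the kinase that opposes the CDC25 phosphatases, rose by 0.22 (adjusted p = 0.00938), with intensities of 1024 and 1049.7 with shBORIS, against 687 and 581 with shLUC; it did not pass without shLUC replicate 2 (adjusted p = 0.0594). Quantile normalization and cyclic loess also ended its call (adjusted p = 0.215 and 0.175). On the deposited scale the 3 phosphatases and WEE1 were all higher in shBORIS cells. The dimmer probe sets of CDC25A over the filter read -0.23 and -0.22 on the relative scale.

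The small CDK-binding subunits passed on the deposited scale alone with all 4 arrays. CKS1B, which helps CDK complexes bind their substrates and also serves in the degradation of a CDK inhibitor, read 1870.4 and 2105 with shBORIS, against 1283 and 1308 with shLUC, or 0.13 on the relative scale (SE 0.06; adjusted p = 0.0783 in limma). The dimmer probe sets of CKS1B over the filter read 0.14 and 0.23 on the relative scale. CKS2, its close relative, read 1071 and 1088 with shBORIS, against 835 and 747 with shLUC, or -0.03 on the relative scale (SE 0.05; adjusted p = 0.614 in limma). Neither passed on the relative scale, though as deposited they differed by 0.61 and 0.44 and passed (adjusted p = 4.34e-08 and 0.000143). Without shLUC replicate 2, CKS1B read 0.20 and passed (adjusted p = 0.0129). RefSeq names pseudogenes of 15 tested members, and probes may not tell such copies apart. Among them are CKS1B, BUB3, CENPI, SKA2, CDC20, UBE2C and UBE2S, which fell or did not pass on the relative scale. The others rose: CCNB2, WEE1, AURKA, NEK2, AURKB, BUB1, MAD2L1 and CENPN.

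Mitotic kinases rose, with one exception in the passenger complex. AURKA, the spindle pole kinase that also activates PLK1, had intensities of 2707 and 2915 with shBORIS, against 1369 and 1324 with shLUC, and rose by 0.58 on the relative scale (SE 0.05; adjusted p = 7.62e-06 in limma). NEK2, a kinase that separates the centrosomes, read 1335 and 1369 with shBORIS, against 672 and 583 with shLUC, a rise of 0.61 on the relative scale (SE 0.06; adjusted p = 1.22e-05 in limma), and each of its 7 probe sets was higher, by 0.38 to 0.71. In AURKA and NEK2 the dimmer shBORIS array was 1.98 and 1.99 times as bright as the brighter shLUC array. PLK1, which acts from entry to cytokinesis, read 933 and 978 with shBORIS, against 509 and 512 with shLUC, a rise of 0.41 on the relative scale (SE 0.06; adjusted p = 0.000214 in limma). MASTL, the Greatwall kinase that holds down a phosphatase opposing CDK1, was dimmer, at 186 and 206 with shBORIS, against 118 and 100.3 with shLUC, and rose by 0.28 (adjusted p = 0.00747).

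The chromosomal passenger complex joins the kinase AURKB to the scaffold INCENP and the targeting subunits CDCA8 (borealin) and BIRC5 (survivin). BIRC5 read 1685 and 1751 with shBORIS, against 926 and 917 with shLUC, a rise of 0.41 on the relative scale (SE 0.05; adjusted p = 0.000115 in limma); its 8 dimmer probe sets over the filter ran from -0.0051 to 0.85. CDCA8 read 890.1 and 892 with shBORIS, against 476 and 462 with shLUC, a rise of 0.43 on the relative scale (SE 0.06; adjusted p = 0.000148 in limma), and AURKB rose by 0.29, with intensities of 2127 and 2373 with shBORIS, against 1348 and 1283 with shLUC. The scaffold did otherwise: INCENP had intensities of 206 and 256 with shBORIS, against 202 and 214 with shLUC. It fell by 0.34 on the relative scale (SE 0.09; adjusted p = 0.00661) but differed by 0.13 as deposited (adjusted p = 0.24), where its arrays overlapped and where it read -0.014 without shBORIS replicate 2. Its dimmer probe set had the same signs, at -0.24 on the relative scale. Centring on the median gene cancels within an array, so the log2 distance from INCENP is the same on both scales. It was larger with shBORIS by 0.63 for AURKB, 0.77 for CDCA8 and 0.75 for BIRC5. These pairs set genes that rose against one that fell, so the larger distance follows from the choice and adds no evidence. In each of the 3 pairs both shBORIS arrays lay above both shLUC arrays, a count with no share of all gene pairs beside it. With 2 arrays against 2, an exact 2-sided permutation p cannot go under 0.333.

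In the spindle checkpoint 6 of 7 genes rose, beside 30.3% of all genes, and as deposited all 7 were higher, beside 77.2%. TTK (MPS1), the kinase that starts the signal at unattached kinetochores, had intensities of 631 and 649 with shBORIS, against 256 and 268 with shLUC, and rose by 0.76 on the relative scale (SE 0.07; adjusted p = 1.18e-05 in limma). KNTC1 (ROD), a subunit of the complex that brings dynein and MAD proteins to kinetochores, read 704 and 701 with shBORIS, against 325 and 292 with shLUC, a rise of 0.67 on the relative scale (SE 0.06; adjusted p = 1.06e-05 in limma). For both genes the shBORIS arrays were more than 2 times as bright as the shLUC arrays. This ratio was not counted over all genes, of which 6.65% were higher by at least 2-fold as deposited. BUB1B (BUBR1), which inhibits the anaphase-promoting complex, read 1098 and 1209 with shBORIS, against 645 and 588 with shLUC, a rise of 0.41 on the relative scale (SE 0.05; adjusted p = 0.000103 in limma). BUB1, the kinase that anchors it, rose by 0.31 (adjusted p = 0.00255), with intensities of 293 and 301 with shBORIS, against 178 and 154 with shLUC.

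The other checkpoint genes moved less. MAD2L1 (MAD2), which captures CDC20, read 1948 and 1877 with shBORIS, against 1210.0 and 1088 with shLUC, a rise of 0.25 (adjusted p = 0.00412). ZWILCH, a partner of KNTC1, read 413 and 456 with shBORIS, against 289 and 236 with shLUC, a rise of 0.22 (adjusted p = 0.0199). Leaving out shBORIS replicate 1 or averaging its probe sets ended the call of MAD2L1 (adjusted p = 0.0525 and 0.0597). Leaving out shBORIS replicate 2 or shLUC replicate 2 ended that of ZWILCH (adjusted p = 0.0717 and 0.143), as did quantile normalization and cyclic loess (adjusted p = 0.111 and 0.235). The dimmer probe sets of ZWILCH over the filter read 0.10, 0.095 and 0.087 on the relative scale. BUB3, the shared partner of BUB1 and BUBR1, read 1681 and 1667 with shBORIS, against 1179.9 and 1056 with shLUC, higher by 0.58 as deposited and not past the test at 0.10 on the relative scale (SE 0.05; adjusted p = 0.142 in limma). Its 3 probe sets ran from -0.08 to 0.10 on that scale.

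Of the centromere proteins tested, 8 of 10 rose, beside 30.3% of all genes. CENPF, a large protein of the outer kinetochore corona, read 478 and 494 with shBORIS, against 204 and 198 with shLUC, a rise of 0.73 on the relative scale (SE 0.06; adjusted p = 7.18e-06 in limma), although its other probe set read 0.22. CENPM read 833 and 941 with shBORIS, against 457 and 428 with shLUC, a rise of 0.50 on the relative scale (SE 0.06; adjusted p = 4.62e-05 in limma). CENPK read 339.7 and 345 with shBORIS, against 184 and 152 with shLUC, a rise of 0.49 on the relative scale (SE 0.07; adjusted p = 0.000212 in limma), and CENPQ read 233 and 249 with shBORIS, against 127 and 101 with shLUC, a rise of 0.51 on the relative scale (SE 0.08; adjusted p = 0.000299 in limma). CENPM, CENPK and CENPQ belong to the constitutive network that links centromeric chromatin to the outer kinetochore. In each, both shBORIS arrays lay above both shLUC arrays on both scales, beside 83.8% of all genes as deposited and 40.4% on the relative scale. CENPO and CENPN of the same network rose by 0.33 and 0.24, while its CENPH and CENPI did not pass, at 0.06 and 0.06. The other probe sets of CENPN over the filter read 0.81 and 0.31, and after cyclic loess its call was lost (0.12; adjusted p = 0.0913).

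The centromere's histone and its motor moved less. CENPA, the histone H3 variant that marks centromeres, read 1759 and 1945 with shBORIS, against 1213 and 1059 with shLUC, a rise of 0.22 (adjusted p = 0.00492), and its 4 probe sets lay between 0.19 and 0.24. CENPE, a kinesin that carries chromosomes to the spindle equator, was dim at 129 and 159 with shBORIS, against 85.2 and 76.8 with shLUC; it rose by 0.24 (adjusted p = 0.0304). This call ended when shBORIS replicate 2 (adjusted p = 0.234), shLUC replicate 1 (adjusted p = 0.0605) or shLUC replicate 2 (adjusted p = 0.0801) was left out, and with a pseudocount of 64 (adjusted p = 0.128). CENPH read 678 and 613 with shBORIS, against 467 and 411 with shLUC, and CENPI 71.3 and 90.9 with shBORIS, against 52.1 and 49.3 with shLUC. Both were higher as deposited, by 0.54 and 0.54, and neither passed on the relative scale, at 0.06 and 0.06 (adjusted p = 0.506 and 0.631). The untested CENPP read 51.1 and 55.0 with shBORIS, against 62.6 and 54.2 with shLUC, with overlapping arrays near the filter's 62.2.

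In the outer kinetochore, whose NDC80 complex binds microtubules, 9 of 12 genes rose, beside 30.3% of all genes. SPC24 had intensities of 482 and 508 with shBORIS, against 179.7 and 177 with shLUC, a rise of 0.92 on the relative scale (SE 0.06; adjusted p = 2.29e-06 in limma). SPC25, its partner at the inner end of the complex, read 719 and 689 with shBORIS, against 280.3 and 218 with shLUC, a rise of 0.97 on the relative scale (SE 0.08; adjusted p = 8.70e-06 in limma). NUF2, at the microtubule end, read 933 and 991 with shBORIS, against 433 and 398 with shLUC, a rise of 0.70 on the relative scale (SE 0.05; adjusted p = 4.14e-06 in limma). NDC80 itself read 513 and 508 with shBORIS, against 230.5 and 213 with shLUC, a rise of 0.67 on the relative scale (SE 0.06; adjusted p = 1.35e-05 in limma). On these probe sets all 4 subunits were more than 2 times as bright on every shBORIS array as on any shLUC array. How many of all genes pass this ratio was not counted. By the fitted difference, 6.65% were higher by at least 2-fold as deposited. SPC24 had 4 dimmer probe sets over the filter, which read lower, from 0.40 to 0.51 on the relative scale; the other 3 subunits had none. ZWINT, which joins the kinetochore to checkpoint proteins, read 3101 and 3237 with shBORIS, against 1534 and 1243 with shLUC, a rise of 0.71 on the relative scale (SE 0.06; adjusted p = 1.10e-05 in limma), and its other probe set read 0.92.

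The MIS12 complex, which holds the NDC80 complex on the centromere side, was less even. DSN1 read 864 and 907 with shBORIS, against 454 and 385 with shLUC, a rise of 0.58 on the relative scale (SE 0.06; adjusted p = 2.79e-05 in limma), and NSL1 rose by 0.36, with intensities of 829.7 and 911 with shBORIS, against 517 and 444 with shLUC, while its dimmer probe sets read 0.11 and 0.22. MIS12 read 369 and 387 with shBORIS, against 260.4 and 215 with shLUC, and PMF1 652 and 743 with shBORIS, against 538 and 479 with shLUC. As deposited these 2 were higher by 0.64 and 0.44, but at 0.16 and -0.03 they did not pass on the relative scale (adjusted p = 0.0648 and 0.653); without shLUC replicate 1, MIS12 read 0.24 and passed (adjusted p = 0.0182). The log2 distance of DSN1 from PMF1 was larger with shBORIS by 0.61, which follows from setting a gene that rose against one that did not. RefSeq also lists a transcript joining PMF1 to its neighbour BGLAP, so the PMF1 probe set may read both.

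The SKA complex, which follows the ends of shrinking microtubules, was split. SKA3 had intensities of 341 and 347 with shBORIS, against 107 and 99.0 with shLUC, and rose by 1.12 on the relative scale (SE 0.07; adjusted p = 1.10e-06 in limma), the largest rise among the members and 1.60 as deposited. SKA1 read 251 and 261 with shBORIS, against 126 and 133 with shLUC, a rise of 0.43 on the relative scale (SE 0.08; adjusted p = 0.000804 in limma). SKA2 went the other way, at 499.8 and 531 with shBORIS, against 757 and 603 with shLUC. It fell by 0.86 on the relative scale (SE 0.07; adjusted p = 7.23e-06), and was lower as deposited by a log2 difference of -0.38 (adjusted p = 0.00123), the one member lower on that scale. Its other probe set over the filter read -0.996 on the relative scale and -0.52 as deposited. Without shLUC replicate 1, whose SKA2 intensity was the highest, the deposited difference was -0.22 and did not pass (adjusted p = 0.135), while on the relative scale it was -0.75 (adjusted p = 1.86e-06). The log2 distance of SKA3 from SKA2 was larger with shBORIS by 1.98, and that of SKA1 from SKA2 by 1.29. Both pairs set a gene that rose against one that fell, so the larger distance follows from the choice.

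**Figure D4:**
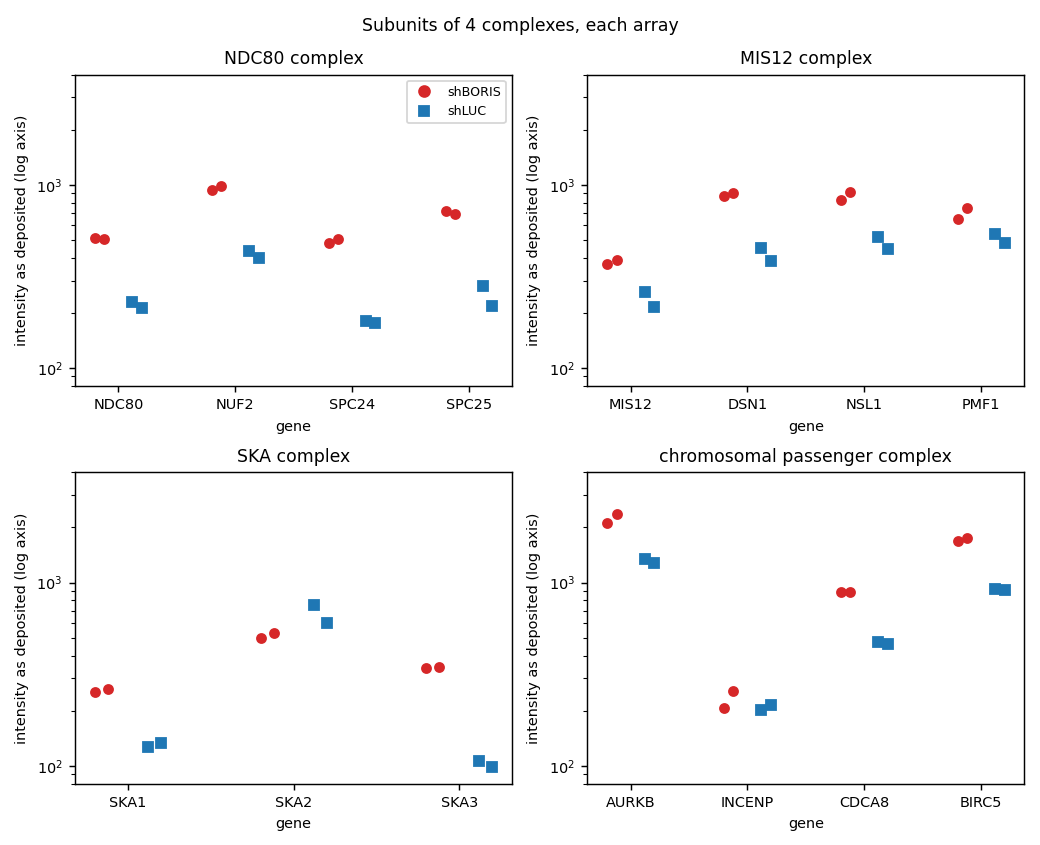
Intensity as deposited (log axis) of each subunit of 4 complexes, with both shBORIS arrays (red circles) left of both shLUC arrays (blue squares). On the brightest probe sets shown, the 4 NDC80 subunits are higher with shBORIS, SKA2 is lower while SKA1 and SKA3 are higher, and INCENP overlaps while its 3 partners are higher.

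Of the 5 degradation and anaphase factors tested, 2 rose and 1 fell, near the 30.3% and 28.8% of all genes. FBXO5 (EMI1), an inhibitor of the anaphase-promoting complex in S phase and G2, had intensities of 915 and 1099 with shBORIS, against 409 and 378 with shLUC, a rise of 0.84 on the relative scale (SE 0.07; adjusted p = 4.80e-06 in limma). ESPL1, the separase that cleaves cohesin at anaphase, read 1259 and 1214 with shBORIS, against 541 and 547 with shLUC, a rise of 0.68 on the relative scale (SE 0.07; adjusted p = 1.71e-05 in limma); a second, dim probe set read -0.16. Both genes were more than 2 times as bright with shBORIS on their brightest probe set. As deposited, 6.65% of all genes were higher by at least 2-fold in the fitted difference. CDC20, the activator that the checkpoint blocks, read 1486 and 1619 with shBORIS, against 1226 and 1146 with shLUC, or 0.38 as deposited and -0.09 on the relative scale (SE 0.05; adjusted p = 0.124 in limma).

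UBE2C, the enzyme that starts ubiquitin chains for the complex, was among the brightest members at 5643 and 6366 with shBORIS, against 4638 and 4285 with shLUC. On this probe set it differed by 0.43 as deposited and by -0.05 on the relative scale (SE 0.05; adjusted p = 0.365 in limma), which did not pass. Its 3 dimmer probe sets read 0.14, 0.22 and 0.33 on the relative scale, so the sign depends on the probe set: as the mean of its probe sets UBE2C passed as higher (0.20; adjusted p = 0.00134), as it did after quantile normalization (0.15; adjusted p = 0.0147), and with the 60th percentile filter it passed as lower (-0.12; adjusted p = 0.0415). UBE2S, which extends the chains, read 4726 and 5159.7 with shBORIS, against 4505 and 4259 with shLUC. It fell by 0.31 on the relative scale (SE 0.04; adjusted p = 0.000219) and differed by 0.17 as deposited (adjusted p = 0.0697, and 0.00503 without shBORIS replicate 1). The distance of FBXO5 from UBE2S was larger with shBORIS by 1.14 log2 units, which follows from setting a gene that rose against one that fell.

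Genes of the same machinery outside the list were read in 4 further lists. Other checkpoint and kinetochore genes rose in 9 of 10 cases, beside 30.3% of all genes, with a median of 0.48 on the relative scale. KNL1, the platform for BUB proteins, rose by 0.82, with intensities of 453 and 492 with shBORIS, against 188 and 178 with shLUC. Its other probe set over the filter read -0.026 on the relative scale. ZW10, the third subunit beside KNTC1 and ZWILCH, rose by 0.66, and TRIP13, which dismantles the checkpoint signal, by 0.64. Other CDK1 regulators rose in 7 of 8 tested cases, beside the same 30.3%, with a median of 0.40. Among them were PKMYT1, a second inhibitory kinase of CDK1, at 0.53, BORA, which helps AURKA activate PLK1, at 0.59, and ARPP19, a substrate of MASTL, at 0.53. Over the filter, the probe sets of BORA ran from 0.37 to 0.60 and those of ARPP19 from 0.033 to 0.53.

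Other centromere proteins rose in 10 of 12 cases and fell in 1, beside 30.3% and 28.8% of all genes, with a median of 0.33. ITGB3BP (CENP-R) rose by 0.92, with intensities of 495 and 588 with shBORIS, against 195 and 194 with shLUC, CENPU by 0.44 and MIS18A, which prepares centromeres for new CENPA, by 0.46. CENPX fell by 0.13 (adjusted p = 0.0482) and was higher as deposited by 0.35. Of the anaphase-promoting complex itself, 6 of 15 genes were higher and 3 lower, near the 30.3% and 28.8% of all genes, with a median of 0.10. CDC27, CDC16 and CDC23, subunits of its scaffold of repeats, rose by 0.78, 0.44 and 0.52. Their probe sets over the filter ran from 0.11 to 0.80, from -0.081 to 0.48 and from 0.29 to 0.52. The small subunit CDC26 fell by 1.13, with intensities of 149 and 152 with shBORIS, against 265 and 228 with shLUC, lower on both scales. ANAPC11 and ANAPC16 fell by 0.30 and 0.25 with values of 0.17 and 0.22 as deposited. The probe sets of ANAPC11 over the filter ran from -0.30 to -0.020 on the relative scale.

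Promoters of mitotic genes often carry CCAAT boxes, bound by NF-Y, and a cell cycle element with the letters TTTGAA, bound by repressor and activator complexes that time expression to G2 and mitosis. The 250 bases before each gene's start, from RefSeq's GRCh38.p14, were searched on both strands for CCAAT (also ATTGG) and TTTGAA (also TTCAAA); the 2 motifs may overlap. A promoter was at hand for 45 of the 54 members. CCAAT was found in 29 of them (64.4%), against 33.0% of all 27305 promoters, and TTTGAA in 14 (31.1%), against 13.6%. Both stood in 12 (26.7%), against 4.85%. The median GC content was 62.8% in members and 58.0% in all promoters. A match is a description of the letters only.

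The motifs can be set beside the members' values, without a test. CCAAT stood in 19 of 33 members that rose and in 9 of 10 tested members that did not, and TTTGAA in 10 of 33 and 4 of 10. The last 150 bases before the start are shown for members with both motifs that rose (CCNB2, PLK1, ZWINT) or did not (CKS2, CDC20), and for the SKA pair that moved in opposite directions. Capitals mark the 2 motifs.
CCNB2: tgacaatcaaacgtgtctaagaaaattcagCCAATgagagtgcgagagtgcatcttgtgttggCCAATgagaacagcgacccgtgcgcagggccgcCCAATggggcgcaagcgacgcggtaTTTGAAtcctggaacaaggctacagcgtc
PLK1: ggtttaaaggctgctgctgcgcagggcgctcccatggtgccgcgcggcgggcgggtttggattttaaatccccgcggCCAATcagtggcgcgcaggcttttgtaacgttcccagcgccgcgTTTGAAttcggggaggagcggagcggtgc
ZWINT: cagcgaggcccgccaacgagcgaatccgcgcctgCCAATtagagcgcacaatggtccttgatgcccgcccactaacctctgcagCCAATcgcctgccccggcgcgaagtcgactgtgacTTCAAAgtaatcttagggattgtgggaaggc
CKS2: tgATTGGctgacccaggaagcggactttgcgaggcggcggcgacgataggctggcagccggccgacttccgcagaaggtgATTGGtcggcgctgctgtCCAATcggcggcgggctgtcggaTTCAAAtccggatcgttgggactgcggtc
CDC20: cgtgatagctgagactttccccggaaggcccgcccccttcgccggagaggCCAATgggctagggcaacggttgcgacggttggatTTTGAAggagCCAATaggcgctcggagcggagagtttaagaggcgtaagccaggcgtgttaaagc
SKA2: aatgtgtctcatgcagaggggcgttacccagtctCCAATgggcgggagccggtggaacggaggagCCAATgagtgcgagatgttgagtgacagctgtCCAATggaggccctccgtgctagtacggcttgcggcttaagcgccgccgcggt
SKA3: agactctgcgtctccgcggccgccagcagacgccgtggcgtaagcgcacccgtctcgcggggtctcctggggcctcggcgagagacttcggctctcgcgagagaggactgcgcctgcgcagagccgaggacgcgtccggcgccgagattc
These windows are chr15:59104996-59105145, plus strand for CCNB2, chr16:23678739-23678888, plus strand for PLK1, chr10:56361260-56361409, minus strand for ZWINT, chr9:89311045-89311194, plus strand for CKS2, chr1:43358831-43358980, plus strand for CDC20, chr17:59155187-59155336, minus strand for SKA2 and chr13:21176553-21176702, minus strand for SKA3. SKA2, which fell, holds 3 CCAAT boxes in its window and 5 in 250 bases, while SKA3, which rose the most, holds neither motif there.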

How the data were processed

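Per the labels' protocols, biotin-labelled RNA with ERCC spike-ins was hybridised to Affymetrix PrimeView arrays. The authors deposited 1 linear intensity per probe set and array. The submitters' processing notes name MAS5, affy and R 3.1.3; the sources used here do not give the scaling step. Probe sets were named through the platform annotation, updated by Entrez identifier. Of 49495 probe sets, 202 controls, 1333 with several symbols and 2682 unnamed ones were left out. Each gene took its brightest probe set, and those whose mean lay below the 40th percentile (62.2) were not tested. Log2(intensity + 16), which understates differences of dim genes, was fitted with limma 3.58.1 (R 4.3.3; intensity trend; 2 residual degrees of freedom), as deposited and centred on each array's median tested gene. P-values were 2-sided and adjusted by Benjamini-Hochberg over 10946 genes. As deposited, the prior had infinite degrees of freedom, so small p-values there are not literal. P-values there rest on the spread between duplicates shared by genes of like level, not on each gene's own spread. On the relative scale the prior had 7.94 degrees of freedom beside 2 residual, so most of the variance is shared there too. With 4 arrays, precision is limited.

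Members, groups, lists and complexes were chosen with earlier results of these data known. The rule for named genes gave full values for up to 4 members per group with the smallest p, and for every member that fell or did not pass, and named up to 3 genes, and those that fell, of each further list. Alternatives covered normalization, pseudocount, filter, probe sets, single arrays, a replicate block and the variance trend. Same-numbered arrays were not paired: their deviations correlated at 0.098 (across genes), and no label links them.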

Additional observations from a re-analysis of the deposited data

How the results depend on the processing

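With 2 arrays a group, members near the threshold depend on scaling and on single arrays. Members called higher numbered 37 after quantile normalization, 35 after cyclic loess and 49 with ERCC centring; under the other alternatives they numbered 45 to 50 as deposited and 34 to 42 on the relative scale. These are counts, not shared genes. The 45 came with the filter at the 60th percentile, which tested 48 members. With no filter 53 members were tested, and otherwise 52. The number lower was 5 after quantile normalization and 6 after cyclic loess, in place of 1 (deposited) or 3 (relative scale). On the relative scale it was 5 with the filter at the 60th percentile, and as deposited 0 to 1 with each array left out. With ERCC centring, which was not followed by centring on the median gene, it was 1. The members' median was 0.28 after quantile normalization and 0.28 after cyclic loess. With ERCC centring, which rests on spike-in medians under the intensity filter, it was 0.81, beside 0.85 as deposited. On the relative scale it was 0.38 with a pseudocount of 64, 0.48 with no filter and 0.32 with the 60th percentile filter. With each array left out it was 0.32 to 0.38 on the relative scale and 0.75 to 0.90 as deposited. Among all genes, 2940 were higher and 3106 lower after quantile normalization, 2680 and 3360 after cyclic loess, and 8233 and 592 with ERCC centring, beside 8455 and 508 as deposited and 3315 and 3153 on the relative scale. With the 60th percentile filter 273 were lower as deposited and 2202 higher on the relative scale, and with no filter 5053 were lower on the relative scale; these filters change how many genes are tested. With the replicate number as a block, 49 members were higher as deposited and 41 on the relative scale, where CKS1B and MIS12 passed in addition, and 7628 of all genes were higher and 384 lower as deposited; the block ended no call of a member. Some signs turned. In place of the deposited values, quantile normalization gave CKS2 -0.15, CDC25A -0.15, INCENP -0.37, CENPH -0.048, PMF1 -0.15, CDC20 -0.17 and UBE2S -0.15, and cyclic loess gave CKS2 -0.14, CDC25A -0.19, INCENP -0.41, CENPH -0.066, PMF1 -0.16, CDC20 -0.16 and UBE2S -0.23. In place of the relative values, these methods gave UBE2C 0.15 and 0.040, with CENPH at -0.048 and -0.066. Also in place of the relative values, ERCC centring without median centring gave CKS2 0.41, CDC25A 0.34, INCENP 0.097, PMF1 0.41, CDC20 0.35, UBE2C 0.39 and UBE2S 0.14. A pseudocount of 64 gave CKS2 0.017, CENPI -0.068, PMF1 0.0073 and UBE2C 0.017, and no filter gave CKS2 0.081, CDC25A 0.018, PMF1 0.082, CDC20 0.021 and UBE2C 0.064. The 60th percentile filter gave CENPH -0.0074, and the mean of probe sets gave CKS2 0.0072, CENPI -0.066, PMF1 0.0081 and UBE2C 0.20. With each array left out, INCENP ran from -0.014 to 0.28 as deposited and, on the relative scale, CENPH from -0.054 to 0.18, CENPI from -0.043 to 0.16 and PMF1 from -0.080 to 0.014. After both quantile normalization and cyclic loess, CCNB2, WEE1 and ZWILCH lost their calls on either scale and CKS1B, BUB3, CENPI and MIS12 those made as deposited; after cyclic loess alone CENPN lost its call on either scale and UBE2C that made as deposited. On the relative scale WEE1 and ZWILCH also lost theirs with the 60th percentile filter, CENPE with a pseudocount of 64, MAD2L1 with the mean of probe sets and WEE1 without shLUC replicate 2. The cause was not tested.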
